A study of Mus musculus with 8 samples.

Results

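The genes described here encode the protein scaffolds that carry ligands for selectins, the hyaluronan receptor CD44, and the enzymes that build the glycans selectins bind. They were taken by symbol from the deposited expression table of spleen regulatory T (Treg) cells. Of the 10 names listed, Cd43 is the protein name of Spn, which leaves 9 genes, all protein coding, among 36811 gene models. The 3 scaffolds were Selplg, Cd44 and Spn, and the 6 enzymes were Fut7, Gcnt1, B4galt1, St3gal4, St3gal6 and Chst15.

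Selectins are lectins on blood vessel walls, platelets and leukocytes that slow passing leukocytes so that they roll along the vessel. They recognise sialyl Lewis X, a sialylated and fucosylated sugar cap, which on leukocytes sits mostly on branched O-glycans of mucin-like proteins such as PSGL-1. A protein that carries the scaffold without the cap binds selectins poorly, so that in T cells the glycosyltransferases are known to set the binding, and activated T cells are known to gain it.

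RNA was sequenced from Foxp3-GFP positive cells of C57BL/6 mice aged 12 to 13 weeks, sorted from spleen after enrichment of CD4 T cells. Every mouse carried Foxp3EGFP-DTR, a reporter that marks Foxp3-expressing cells with green fluorescence and also carries a diphtheria toxin receptor, and was heterozygous for tdRFP, a red fluorescent protein, at Bach2 (Bach2tdRFP/+). The cells were sorted into a Bach2-RFP LO and a Bach2-RFP HI population, with 4 libraries each, labelled F1 and F2 for female and M1 and M2 for male mice. The populations thus differ in the level of a reporter and not in genotype. Whether each library is a separate animal is not stated in the labels, and the p-values reflect only the scatter among the 8 libraries.

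Levels are FPKM, a fragment count scaled by transcript length and library size, as the authors deposited them, and can be compared between genes because they are per length. The test was limma on log2(FPKM + 1), LO minus HI, over the 11260 gene models that reached 1 FPKM in 4 or more libraries, and a gene was called at a Benjamini-Hochberg adjusted p below 0.05. Read totals are not in the table. From the steps between low values, the depth of the libraries relative to HI F1 was 0.818 to 5.27 in LO, with LO M2 the deepest, and 0.636 to 1.27 in HI, with HI M1 the shallowest. Bach2, on which the cells were sorted, stood at 0.894, 0.447, 0.753 and 0.67 FPKM in LO F1, F2, M1 and M2, against 13.6, 20.7, 19.4 and 8.62 FPKM in HI F1, F2, M1 and M2. Foxp3 averaged 14.7 ± 3.97 FPKM in LO and 14.2 ± 0.783 FPKM in HI libraries (SD, n = 4 each). Of 15 genes of T cell and Treg identity, all tested, 3 were higher and 1 lower in LO, and their summed level was 17200 to 22700 FPKM in LO and 15900 to 18300 FPKM in HI. Cd3e averaged 406 ± 25.8 FPKM in LO and 345 ± 43.2 FPKM in HI, and was not called. Ctla4, an inhibitory receptor of Treg cells, was higher at 251 ± 32.4 FPKM in LO and 101 ± 7.53 FPKM in HI (limma adjusted p = 0.000642), as were Ikzf2 and Tnfrsf18. Il2ra, which encodes CD25, was lower at 27.7 ± 5.13 FPKM in LO and 75.6 ± 8.83 FPKM in HI (limma adjusted p = 0.00149).

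The libraries held transcripts used as markers of other cells, and which cells they came from was not tested. The summed levels that follow are over every gene of a list, tested or not. Of 10 markers of plasmacytoid dendritic cells, 6 were lower and 0 higher in LO, with summed levels of 291 to 388 FPKM in LO and 485 to 848 FPKM in HI, and Siglech, which defines these cells, was at 0, 0.76, 0 and 1.4 FPKM in LO F1, F2, M1 and M2 and at 7.14 to 44.6 FPKM in HI. Of 14 tested B cell markers 4 were lower and 1, Ighm, higher in LO (sums 2630 to 3900 in LO and 2270 to 3380 FPKM in HI), and 9 were not called. Ms4a1, which encodes CD20, was at 0 to 1.95 FPKM in LO and 5.5 to 24.3 FPKM in HI. Cd79a, also lower, was at 3.24 to 5.81 FPKM in LO and 37.2 to 73.1 FPKM in HI. Ighm was at 1040 to 1960 FPKM in LO and 767 to 864 FPKM in HI. Cd79b averaged 75.9 FPKM in LO and 95.8 FPKM in HI, and was not called. Of 12 tested myeloid markers 3 were lower and 0 higher in LO (163 to 443 in LO and 327 to 586 FPKM in HI). Of 6 tested plasma cell markers 2, Jchain and Prdm1, were higher in LO (180 to 270 in LO and 125 to 150 FPKM in HI), and 4 were not called. Of these 4, Mzb1 averaged 4.95 FPKM in LO and 9.66 FPKM in HI, and Xbp1 104 and 112 FPKM. Sdc1 was at 0.493 to 7.82 FPKM in LO and 0 to 2.67 FPKM in HI, and Derl3 at 1.28 to 2.1 and 0 to 2.1 FPKM. Tnfrsf17 was at 0 in all libraries except LO M2. Of 6 tested CD8 T and NK cell markers Nkg7 was higher in LO, and Eomes, which passed the filter only through the HI libraries, was lower (181 to 349 in LO and 134 to 198 FPKM in HI). Of 10 red cell and platelet markers 5 were tested, and limma called 0, with 0 at an unadjusted p below 0.05 (sums over the 10 of 18.9 to 439 in LO and 45.0 to 242 FPKM in HI). What these transcripts contribute to the levels below was not tested.

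Of the 9 genes, 3 were higher in LO cells, Fut7, Gcnt1 and Cd44, and 0 were lower, while 6 were not called. Over all genes tested, 4.65% were called higher and 3.64% lower in LO. In 4 of the 9 genes, the same 3 and Spn, all LO libraries lay above all HI libraries, as in 7.9% of all genes tested. In 0 of the 9 did all LO libraries lie below all HI libraries, as in 7.18% of all genes tested. All 9 passed the filter on low values, but Gcnt1 passed it only through the LO libraries. The median log2 difference of the 9 was 0.3, beside -0.026 over all genes tested. These are small numbers of genes, chosen with earlier results of these data known.

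**Figure D1:**
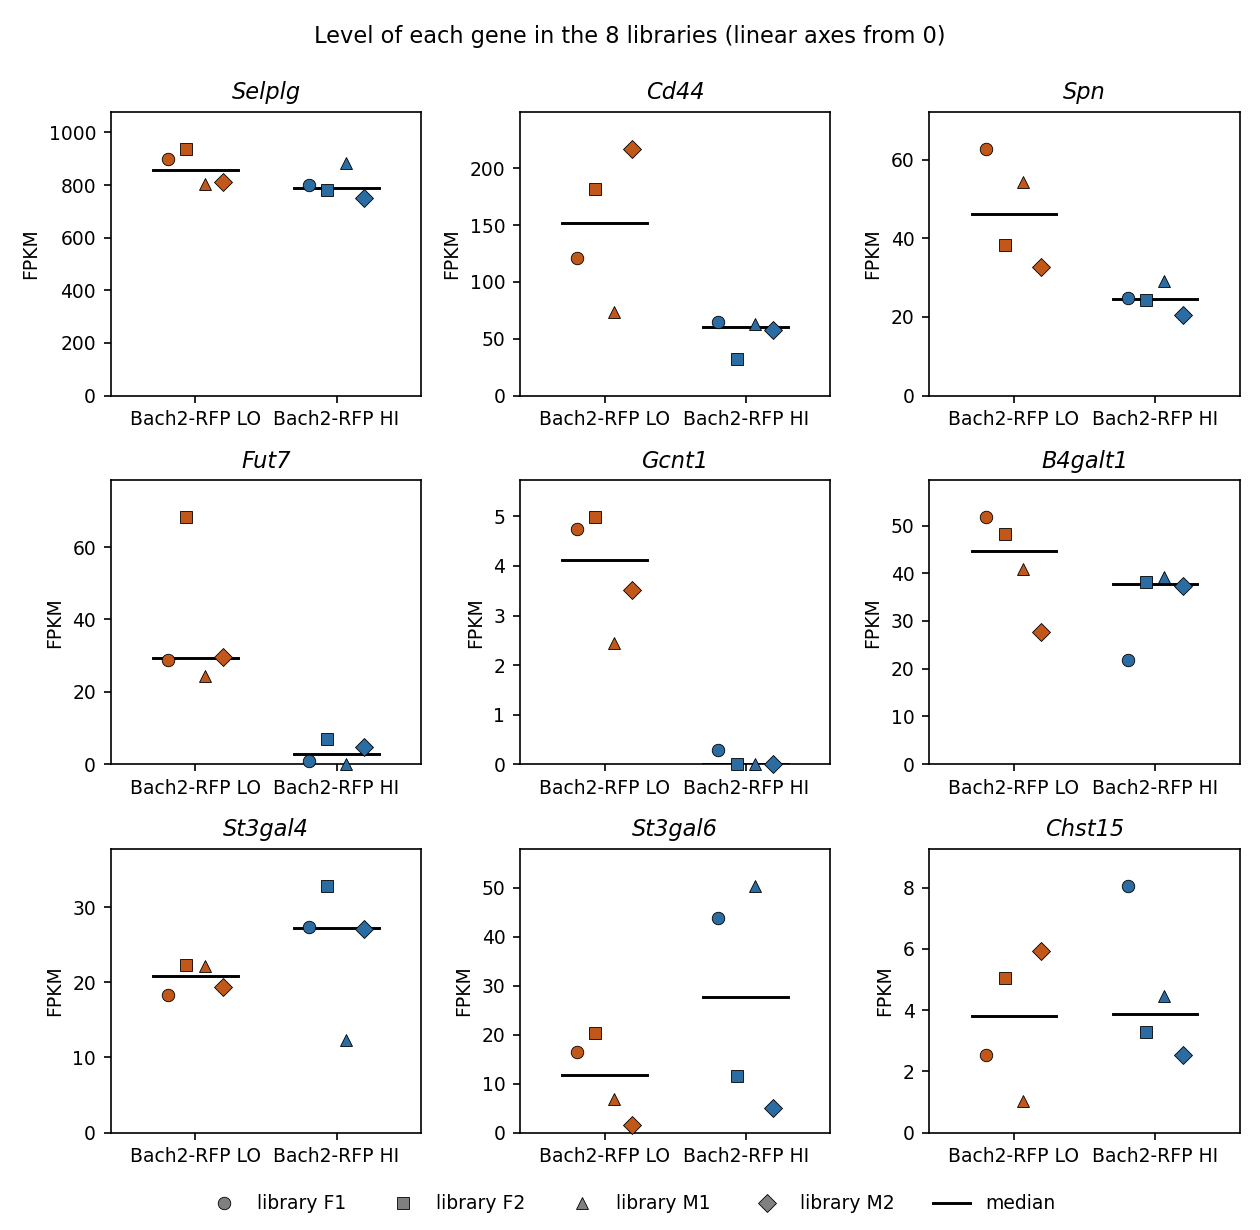
FPKM of the 9 genes in each library, on linear axes that start at 0, with the 4 LO libraries on the left and the 4 HI libraries on the right of each panel, 1 symbol per library label, and a bar at the median of each population. Fut7, Gcnt1, Cd44 and Spn lie higher in every LO library than in any HI library, whereas Selplg is at 749 to 937 FPKM in all 8.

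Because Fut7 and Gcnt1 were the enzymes called under every alternative in which they were tested, the 250 bases before their most upstream annotated start are shown, 5′ to 3′ on the strand of the gene, from the RefSeq promoter table of build GRCm38.p6. The build differs from the one the submitters name for the reads. The Fut7 window is chr2:25422992-25423241 (plus strand) and the Gcnt1 window is chr19:17372845-17373094 (minus strand). Capitals mark matches to any of the motifs searched.
Fut7: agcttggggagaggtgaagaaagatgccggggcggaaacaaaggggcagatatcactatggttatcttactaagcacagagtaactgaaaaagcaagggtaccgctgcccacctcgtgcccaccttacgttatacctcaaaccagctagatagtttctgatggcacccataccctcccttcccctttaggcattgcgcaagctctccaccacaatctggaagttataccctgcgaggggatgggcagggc
Gcnt1: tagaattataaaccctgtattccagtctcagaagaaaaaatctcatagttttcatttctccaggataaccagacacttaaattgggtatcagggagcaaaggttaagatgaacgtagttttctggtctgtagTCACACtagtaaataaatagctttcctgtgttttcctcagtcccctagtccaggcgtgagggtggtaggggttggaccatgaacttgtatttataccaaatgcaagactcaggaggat
The table matched 8 of the 9 genes, all but Selplg, with 13 windows of this length. The motifs were the core bound by AP-1 and BACH factors (TGANTCA), the T-box core (TCACAC) and its longer form (TCACACC), each searched on both strands. A match to the longer form also matches the core within it. The AP-1 and BACH core was in 0 of the 13 windows, and in 6.75% of all 32851 promoter windows. The T-box core was in 1 of the 13, the Gcnt1 window above, and in 12.3% of all windows, and the longer form was in 0 of the 13 and in 3.33% of all windows. These matches describe letters in short windows and say nothing on binding.

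The scaffolds were all well expressed, and the one named for P-selectin differed least. Selplg (ENSMUSG00000048163, chromosome 5) encodes PSGL-1, the main P-selectin ligand of leukocytes. It stood at 899, 937, 803 and 812 FPKM in LO F1, F2, M1 and M2, against 799, 780, 884 and 749 FPKM in HI F1, F2, M1 and M2. The populations overlapped, and the highest library was only 1.25-fold above the lowest. The log2 difference was 0.1 with a 95% interval of -0.16 to 0.36 (limma, adjusted p = 0.682), and 0.06 to 0.15 when 1 library was left out. Its level placed it above 98.5% of the tested genes in LO and above 98.2% in HI.

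Cd44 (ENSMUSG00000005087, chromosome 2) encodes CD44, the hyaluronan receptor that rises on antigen-experienced T cells and can bear selectin-binding glycans. It stood at 121, 182, 73.8 and 217 FPKM in LO F1, F2, M1 and M2, against 64.6, 32.1, 62.7 and 58.0 FPKM in HI F1, F2, M1 and M2. All LO libraries were above all HI libraries, though LO M1 was close to the highest HI library. The mean was 149 ± 63.7 FPKM in LO and 54.3 ± 15.1 FPKM in HI (SD, n = 4 each), a 2.73-fold difference and a log2 difference of 1.37 (SE 0.35, limma adjusted p = 0.0396). The call was lost when any library but LO M1 was left out. The limma adjusted p was 0.0711 without LO F1, 0.11 without LO F2 and 0.092 without LO M2, and without HI F1, HI F2, HI M1 or HI M2 it was 0.062, 0.0982, 0.0623 or 0.0708. The gene has many spliced forms, which a level per gene does not separate.

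Spn (ENSMUSG00000051457, chromosome 7) encodes CD43, a large sialomucin that activated T cells decorate with core 2 O-glycans and that serves as an E-selectin ligand. It stood at 62.7, 38.2, 54.2 and 32.7 FPKM in LO F1, F2, M1 and M2, against 24.7, 24.4, 29.1 and 20.5 FPKM in HI F1, F2, M1 and M2. The populations did not overlap, and the mean was 46.9 ± 13.9 FPKM in LO and 24.7 ± 3.52 FPKM in HI (SD, n = 4 each). The difference missed the threshold, with a log2 difference of 0.86 and a 95% interval of 0.33 to 1.4 (limma, adjusted p = 0.0576). It passed without LO M2 (adjusted p = 0.037), under quantile normalization (adjusted p = 0.0482) and under upper quartile scaling (adjusted p = 0.045).

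Among the enzymes, the branching and the fucosylating one differed most. Gcnt1 (ENSMUSG00000038843, chromosome 19) encodes the core 2 enzyme that opens the O-glycan branch on which the selectin-binding cap is built. It stood at 4.74, 4.98, 2.44 and 3.52 FPKM in LO F1, F2, M1 and M2, against 0.277 in HI F1 and a listed 0 in HI F2, M1 and M2. No LO library overlapped with a HI library. LO exceeded HI by 2.18 on the log2 scale (SE 0.34, adjusted p = 0.00338 by limma), and the gene was called without any 1 library. A listed 0 can be a failed estimate, as for mt-Co2, a mitochondrial gene of all cells that is at 0 in LO F2, so no mean or fold is given for such genes. Gcnt1 was also low for the tested genes in LO, above 19.2% of them.

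Fut7 (ENSMUSG00000036587, chromosome 2) encodes the fucosyltransferase that adds the last sugar of sialyl Lewis X in leukocytes. It stood at 28.8, 68.2, 24.4 and 29.7 FPKM in LO F1, F2, M1 and M2, against 0.763, 6.83, 0 and 4.66 FPKM in HI F1, F2, M1 and M2. The lowest LO library was above the highest HI library, and LO F2 stood apart from the other LO libraries. LO exceeded HI by 3.58 on the log2 scale (SE 0.64, adjusted p = 0.00739 by limma), the largest difference among the 9 genes on this scale. It was called without any 1 library, with log2 differences of 3.06 to 4.05. In bulk libraries such as these, fewer cells that make a transcript and less transcript per cell cannot be told apart.

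**Figure D2:**
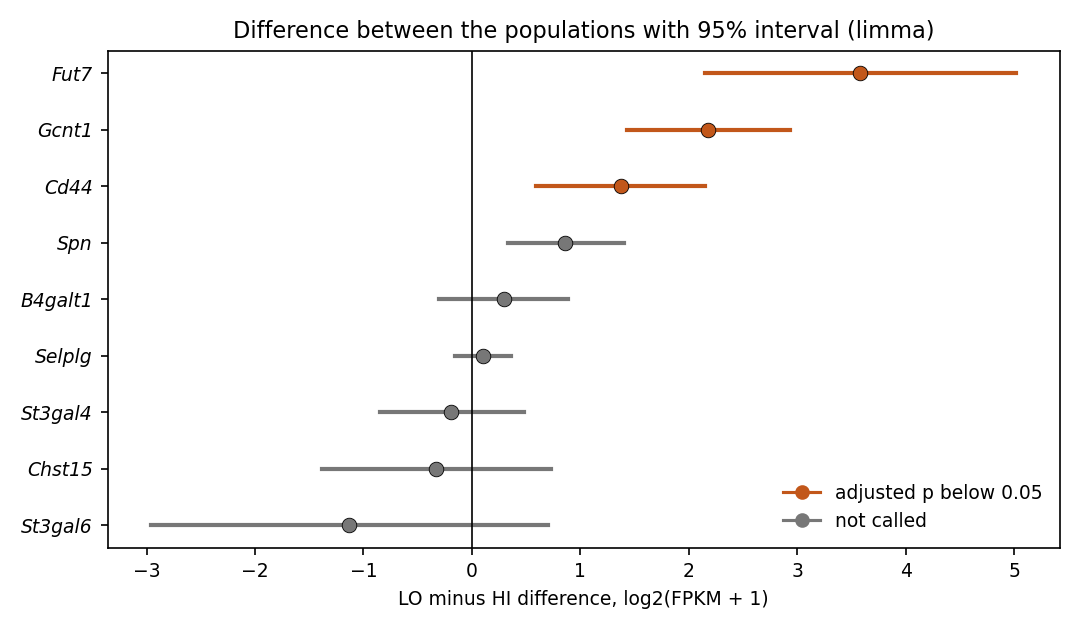
LO minus HI difference in log2(FPKM + 1) for the 9 genes, with dots for the estimate and lines for the 95% interval from limma, coloured by whether the adjusted p was below 0.05. Fut7 (3.58), Gcnt1 (2.18) and Cd44 (1.37) were called, and the interval of Spn also lies above 0.

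The galactosyltransferase and the sialyltransferases that prepare the chain for Fut7 were expressed in both populations and were not called. B4galt1 (ENSMUSG00000028413, chromosome 4), which adds galactose to form lactosamine, stood at 51.7, 48.2, 41.0 and 27.6 FPKM in LO F1, F2, M1 and M2, against 21.8, 38.2, 39.2 and 37.4 FPKM in HI F1, F2, M1 and M2. The populations overlapped, with a log2 difference of 0.3 and a 95% interval of -0.3 to 0.89 (limma, adjusted p = 0.594). It was 0.1 without HI F1, 0.19 without LO F1 and 0.48 without LO M2, with no call (limma, adjusted p = 0.88, 0.796 and 0.343).

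St3gal4 (ENSMUSG00000032038, chromosome 9), which puts sialic acid on that galactose, stood at 18.3, 22.3, 22.2 and 19.4 FPKM in LO F1, F2, M1 and M2, against 27.4, 32.8, 12.3 and 27.1 FPKM in HI F1, F2, M1 and M2. HI M1, the shallowest library, was lower than every LO library, while the other HI libraries were higher than every LO library. The log2 difference was -0.19 with a 95% interval of -0.85 to 0.48 (limma, adjusted p = 0.784). It was -0.48 without HI M1, -0.12 without HI F1 or HI M2 and -0.03 without HI F2, with no call. A model on the opposite strand, 4930581F22Rik, overlaps St3gal4 in the annotation and was at 3.77 to 11.6 FPKM in LO and 6.35 to 16.4 FPKM in HI. Whether counting used strand is not given in the sources used here, so the reads of these models cannot be told apart.

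St3gal6 (ENSMUSG00000022747, chromosome 16), the related enzyme with the same type of acceptor, varied widely within each population. It stood at 16.5, 20.3, 6.97 and 1.58 FPKM in LO F1, F2, M1 and M2, against 43.8, 11.5, 50.4 and 5.1 FPKM in HI F1, F2, M1 and M2. HI F1 and HI M1 were high and HI M2 was lower than 3 of the 4 LO libraries, so the populations overlapped. The highest HI library was 9.89-fold above the lowest, and in LO that ratio was 12.8. The log2 difference of -1.13 had a 95% interval of -2.96 to 0.7 (limma, adjusted p = 0.491). It was -0.51 without LO M2, -0.75 without HI F1 and -0.69 without HI M1, with no call (limma, adjusted p = 0.779, 0.705 and 0.729). With HI M1 and LO M2 both left out it was -0.07.

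Chst15 (ENSMUSG00000030930, chromosome 7) encodes the sulfotransferase that makes the highly sulfated chondroitin sulfate E, a chain that selectins can also bind. It was low, at 2.53, 5.06, 1.03 and 5.94 FPKM in LO F1, F2, M1 and M2, against 8.06, 3.29, 4.47 and 2.53 FPKM in HI F1, F2, M1 and M2. The populations overlapped and the log2 difference was -0.33 with a 95% interval of -1.38 to 0.73 (limma, adjusted p = 0.758). Without LO M1 the difference was 0.02.

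In the order of median levels, LO cells had Selplg at 855 FPKM, Cd44 at 151, Spn at 46.2, B4galt1 at 44.6, Fut7 at 29.3, St3gal4 at 20.8, St3gal6 at 11.7, Gcnt1 at 4.13 and Chst15 at 3.79 FPKM. HI cells had Selplg at 789 FPKM, Cd44 at 60.3, B4galt1 at 37.8, St3gal6 at 27.7, St3gal4 at 27.3, Spn at 24.5, Chst15 at 3.88, Fut7 at 2.71 and Gcnt1 at 0 FPKM. The libraries of neighbours in this order did not overlap between Selplg and Cd44, Cd44 and Spn, and Fut7 and St3gal4 in LO, nor between Selplg and Cd44, and Spn and Chst15 in HI. All other neighbours overlapped. Fut7 thus ranked above St3gal4 in LO and below Chst15 in HI. By mean level, Fut7 was above 69.9% of the tested genes in LO and above 15.8% in HI. The HI mean behind that share takes in the listed 0 of HI M1.

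**Figure D3:**
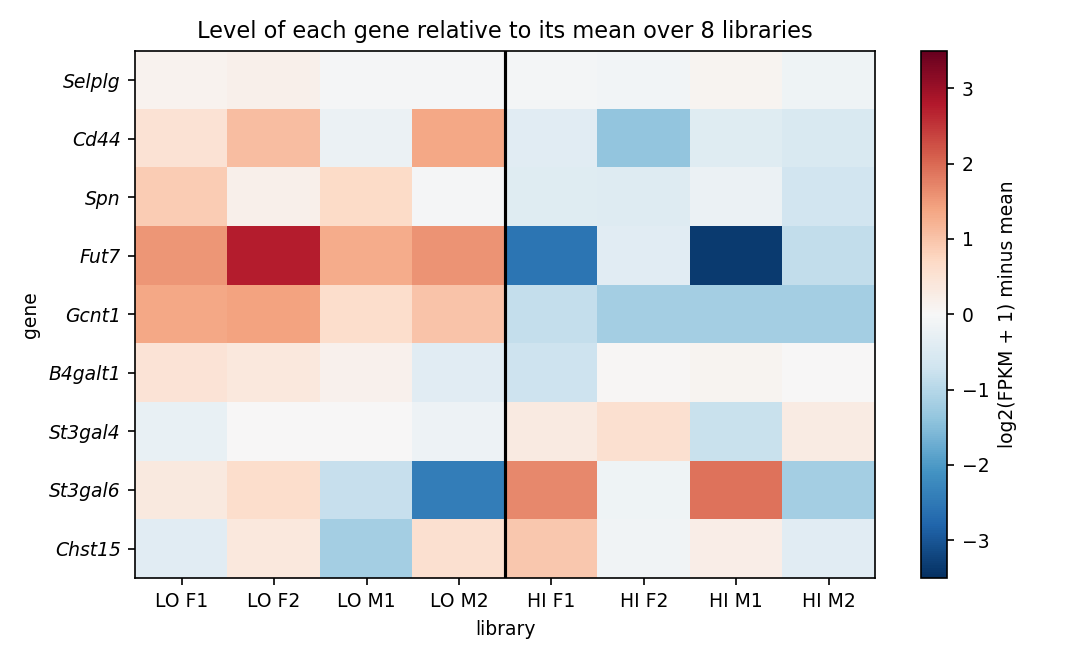
Colour map of log2(FPKM + 1) minus the mean of each gene over the 8 libraries, with genes in rows and the 4 LO libraries left of the line, 4 HI libraries right of it. Fut7 and Gcnt1 are above their mean in every LO library and below it in every HI library, and St3gal6 is above its mean in HI F1 and HI M1 but below it in HI F2 and HI M2.

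The difference between the populations was also set out by sex. The LO minus HI log2 difference of Fut7 was 3.55 in males and 3.61 in females, that of Gcnt1 1.98 in males and 2.37 in females, that of Cd44 1.06 in males and 1.68 in females, and that of Spn 0.76 in males and 0.97 in females. B4galt1 was at -0.18 in males and 0.77 in females, an interaction of -0.95 (SE 0.5; limma, adjusted p = 0.999). None of the 9 genes was called for the interaction of sex and population, where limma called 0.0178% of all genes and 3.83% had an unadjusted p below 0.05. None was called between males and females, where limma again called 0.0178% and 3.35% had an unadjusted p below 0.05. None of the 9 had an unadjusted p below 0.05 in either fit. With 2 libraries per sex and population, only large differences could have been detected.

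By the mean absolute difference of centred log2(FPKM + 1) profiles over the 8 libraries, the genes most like Gcnt1 among 9769 protein-coding genes were Ckap2 (0.137), Fam69c (0.163) and Bmp7 (0.173). Ckap2 and Fam69c were listed at 0 in the 4 HI libraries, so both passed the filter only through LO. Ckap2, a spindle-associated protein, was at 7.29, 4.25, 2.49 and 3.49 FPKM in LO F1, F2, M1 and M2. Of the other 8 genes described here, Cd44 was the nearest to Gcnt1 (0.539) and St3gal6 the farthest (1.655).

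The wider pathway was read from 10 lists, which held 153 genes of the table, 105 of them tested. Of the 105, 10 were higher and 4 lower in LO, or 13.3%, beside 8.29% of all genes tested, and the median log2 difference was 0.17. The lists of lactosamine extension, fucosyltransferases, sulfotransferases and sugar donors held no called gene. St6galnac6 is among the higher ones although no HI library reached 1 FPKM, so that, like Gcnt1, it passed the filter only through LO, and Hmmr and Mmp14 reached 1 FPKM in 1 HI library each. The count is therefore a description and not evidence about the pathway.

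**Figure D4:**
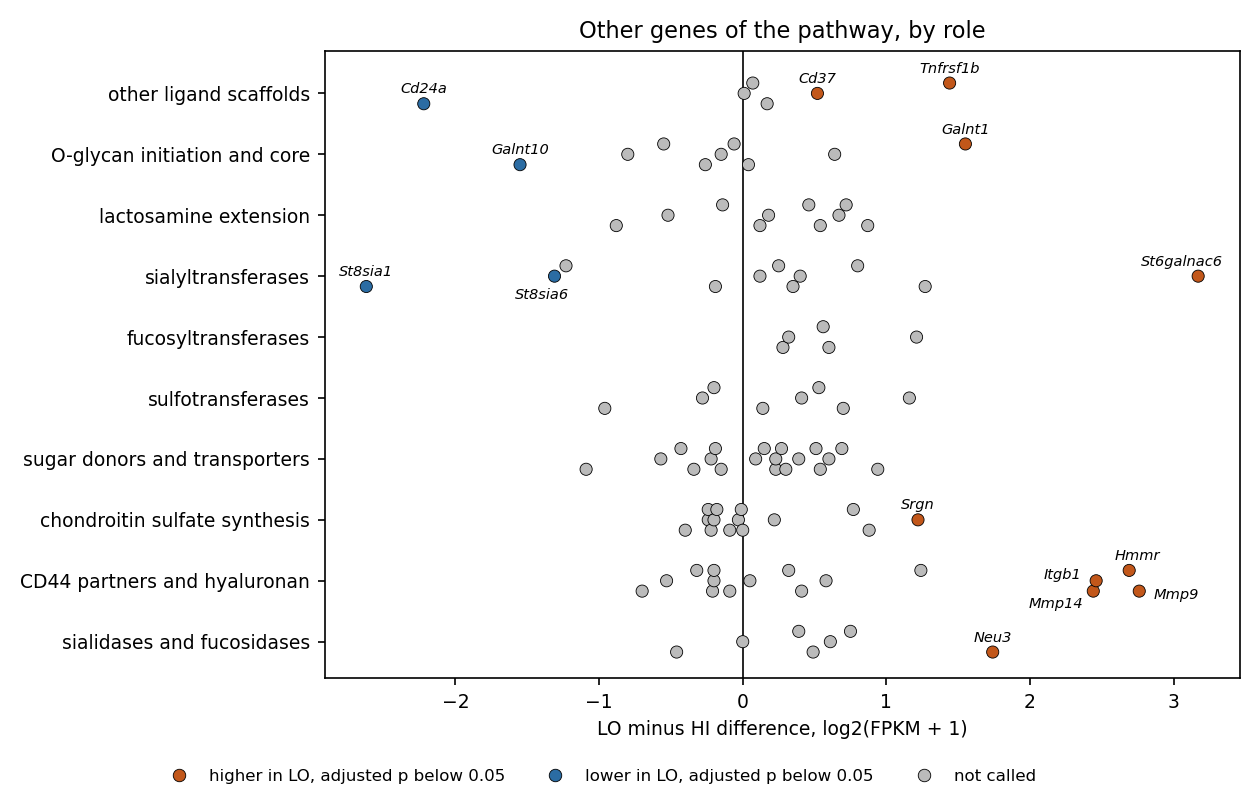
LO minus HI difference in log2(FPKM + 1) of each tested gene of the 10 lists, 1 row per list, with genes at adjusted p below 0.05 named and coloured by direction. Cd24a, Galnt10, St8sia1 and St8sia6 are lower in LO, and the lists of lactosamine extension, fucosyltransferases, sulfotransferases and sugar donors hold no called gene.

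Of 6 tested genes in the list of other scaffolds, 2 rose and 1 fell. Tnfrsf1b, which encodes TNF receptor 2, and Cd37, a tetraspanin, rose, though neither is a known selectin ligand. Tnfrsf1b averaged 246 ± 90.3 FPKM in LO and 86.1 ± 8.41 FPKM in HI (SD, n = 4 each; limma adjusted p = 0.00497). Cd37 averaged 915 ± 80.4 FPKM in LO and 638 ± 88.1 FPKM in HI (limma adjusted p = 0.0433). The Cd37 call was lost without LO F1 (limma adjusted p = 0.0922), LO F2 (0.127), LO M2 (0.0785), HI F1 (0.0847), HI F2 (0.123) or HI M2 (0.109), and with the library label as a replicate block (0.0955). Cd24a, a glycoprotein that mouse P-selectin can bind and that B cells carry, fell to 1.81, 0, 0.74 and 1.12 FPKM in LO F1, F2, M1 and M2, against 13.3, 6.98, 8.14 and 3.62 FPKM in HI F1, F2, M1 and M2 (limma adjusted p = 0.0143). Of the 14 tested B cell markers, 4 were lower and 1 higher in LO, as given above, and 9 were not called. The part of B cell transcripts in the Cd24a difference was not tested.

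Of 9 tested genes of O-glycan initiation and core structures, 1 rose and 1 fell. Galnt1, which starts O-glycans, averaged 19.0 ± 5.83 FPKM in LO and 5.95 ± 2.42 FPKM in HI (SD, n = 4 each; limma adjusted p = 0.0267). The Galnt1 call was lost without LO F1 (limma adjusted p = 0.0763), LO M1 (0.0654), LO M2 (0.0734), HI F1 (0.0597), HI F2 (0.0528) or HI M2 (0.0538), and with the library label as a replicate block (0.0643). Galnt10, of the same family, averaged 13.7 ± 3.19 FPKM in LO and 41.8 ± 7.61 FPKM in HI, 3.04-fold higher in HI (limma adjusted p = 0.00282). C1galt1c1, the chaperone of the enzyme that makes core 1, on which Gcnt1 acts, was at 8.89 to 17.5 FPKM in LO and 9.77 to 15.3 FPKM in HI. C1galt1, the core 1 enzyme itself, did not pass the filter, at 0 to 2.59 FPKM in LO and 0.648 to 2.5 FPKM in HI. The other core 2 enzymes, Gcnt3 and Gcnt4, were listed at 0 in all 8 libraries.

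Of 11 other sialyltransferases tested, 1 rose and 2 fell. St8sia1, which makes the ganglioside GD3, averaged 2.18 ± 0.753 FPKM in LO and 19.3 ± 8.33 FPKM in HI (SD, n = 4 each), 8.83-fold higher in HI (limma adjusted p = 0.00158). St8sia6 averaged 29.0 ± 8.73 FPKM in LO and 71.7 ± 15.0 FPKM in HI (limma adjusted p = 0.0138). St6galnac6, which acts on gangliosides, stood at 6.79, 7.87, 22.3 and 5.95 FPKM in LO F1, F2, M1 and M2, against a listed 0 in HI F1, F2 and M1 and 0.723 FPKM in HI M2 (limma adjusted p = 0.0021). None of these enzymes is known for making sialyl Lewis X. St3gal1, which caps core 1 and competes with Gcnt1 for it, averaged 11.5 ± 1.99 FPKM in LO and 9.25 ± 3.94 FPKM in HI (limma adjusted p = 0.606).

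Of 5 tested fucosyltransferases other than Fut7, limma called 0, and 1, Fut10, had an unadjusted p below 0.05. That count has no share over all genes beside it and is not read as a trend. Fut10 was at 1.49 to 2.98 FPKM in LO and 0 to 1.32 FPKM in HI (limma adjusted p = 0.107), and Fut11 averaged 12.8 ± 2.63 FPKM in LO and 8.32 ± 3.02 FPKM in HI (SD, n = 4 each; limma adjusted p = 0.299). Fut4, which shares with Fut7 the addition of fucose to sialylated chains in mouse leukocytes, did not pass the filter, at 0 to 0.842 FPKM in LO and the same range in HI. Fut9 was listed at 0 in all 8 libraries.

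Limma called 0 of 10 genes of lactosamine extension, 0 of 8 of sulfation and 0 of 19 of sugar donor supply. At an unadjusted p below 0.05 these were 1 of 10, 2 of 8 and 4 of 19. The share of all genes below that unadjusted p was not worked out for LO against HI. It is no smaller than the 8.29% called after adjustment, so these counts are not read as a trend. In the first, B3gntl1 averaged 6.62 ± 1.69 FPKM in LO and 3.72 ± 0.673 FPKM in HI (SD, n = 4 each; limma adjusted p = 0.235), and B3gnt8 was at 0 to 1.14 FPKM in LO and 0 to 2.94 FPKM in HI (limma adjusted p = 0.364). Chst2, a Golgi sulfotransferase of N-acetylglucosamine, was at 2.77 to 4.35 FPKM in LO and 0.198 to 1.93 FPKM in HI, with no overlap but no call (limma adjusted p = 0.0907). Slc35b2, the transporter of the sulfate donor, averaged 65.2 ± 14.4 FPKM in LO and 44.2 ± 4.76 FPKM in HI (limma adjusted p = 0.138). Tpst2, which sulfates tyrosines such as those of PSGL-1, averaged 223 ± 6.06 FPKM in LO and 172 ± 43.9 FPKM in HI (limma adjusted p = 0.248). Among the donor genes, Uap1 averaged 23.3 ± 3.05 FPKM in LO and 14.0 ± 1.36 FPKM in HI (limma adjusted p = 0.0752) and Gmds, the first enzyme of GDP-fucose synthesis, 22.9 ± 5.22 FPKM in LO and 11.9 ± 4.77 FPKM in HI (limma adjusted p = 0.111). Slc35c1, which carries GDP-fucose into the Golgi, averaged 41.6 ± 6.86 FPKM in LO and 28.8 ± 2.95 FPKM in HI (limma adjusted p = 0.145).

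Of 14 tested genes of chondroitin sulfate synthesis and its carriers, 1 rose and 0 fell. It was Srgn, which encodes serglycin, a granule proteoglycan, at 1530 ± 102 FPKM in LO and 663 ± 103 FPKM in HI (SD, n = 4 each), 2.31-fold higher in LO (limma adjusted p = 0.000782). Of 16 tested partners of CD44 and hyaluronan genes, 4 rose and 0 fell. Itgb1, the integrin beta 1 chain, averaged 398 ± 77.7 FPKM in LO and 70.7 ± 5.17 FPKM in HI (limma adjusted p = 7.8e-05). Mmp9, a gelatinase that can dock on CD44, averaged 33.7 ± 12.4 FPKM in LO and 4.24 ± 2.28 FPKM in HI, 7.94-fold higher in LO (limma adjusted p = 0.00197). Mmp14, a membrane protease that can cleave CD44, was at 3.98 to 10.3 FPKM in LO and 0 to 1.22 FPKM in HI (limma adjusted p = 0.00602). Hmmr, a hyaluronan receptor that also acts on the mitotic spindle, was at 5.0 to 16.5 FPKM in LO and 0 to 1.07 FPKM in HI (limma adjusted p = 0.00324). Of 7 tested sialidases, fucosidases and related enzymes, Neu3, a membrane sialidase of gangliosides, rose to 18.1 ± 3.45 FPKM in LO, against 4.86 ± 1.85 FPKM in HI (limma adjusted p = 0.0064), and 0 fell.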

How the data were processed

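RNA of 8 sorted Treg populations was sequenced with SmartSeq2 libraries, per the labels' protocols. The submitters' processing notes list the tools HISAT2, cutadapt and FastQC with no version, and the genome builds mm9 and NCBIM37. The deposited FPKM values, 1 column per library, were made by the authors with Cuffnorm per the name of the table, and were used as deposited; how libraries were scaled is not given in the sources used here. Each library was placed in LO or HI by its title. The series' design text describes a conditional knockout and was not used.

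Symbols came by Ensembl ID from GENCODE M21 for 31840 of 36811 models, and for 10892 of the 11260 tested, while promoter letters came from RefSeq (GRCm38.p6). Genes that reached 1 FPKM in 4 or more libraries were tested on log2(FPKM + 1), a scale that understates the change of low genes, with limma 3.58.1 in R 4.3.3, eBayes with a variance trend and Benjamini-Hochberg adjustment over all genes. The sex comparison used label means, 2 against 2. The scripts were tested on simulated data.

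The genes and lists were chosen with earlier results of these data known. The text names the 9 genes and, per pathway list, up to 4 called genes by p, or up to 2 where none was called. It also names the 3 genes nearest to the called gene with the smallest p. Apart from Foxp3, the named genes of T cell and Treg identity, such as Cd3e, Ctla4 and Il2ra, were chosen after their values were seen. So were the named markers of other cells, hemoglobin genes included. Tpst2, Slc35c1, C1galt1, C1galt1c1, St3gal1, Fut4, Fut9, Gcnt3 and Gcnt4 were also named after their values were seen. Alternatives were left-out libraries, the label as a block, sex as a covariate, no variance trend, scaling by upper quartile or quantiles, a minimum of 5 FPKM or none, and a pseudocount of 0.1. In the main LO against HI fit, libraries with the same label were not taken as pairs, since the labels do not say what they share. The male against female fit did average the HI and LO library of each label. The list of the selectins themselves is not reported here.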

Additional observations from a re-analysis of the deposited data

Results flagged for a closer look

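In 18 groups of 4 libraries, 9 genes in both populations, 3 held a library far from the others for the spread of its group, where chance alone flags about 1 group in 20. Fut7 in LO F2 was at 68.2 FPKM, above 24.4 to 29.7 in the other LO libraries. Gcnt1 in HI F1 was at 0.277 FPKM, with the other HI libraries listed at 0, so that a trace of reads sets this flag. B4galt1 in HI F1 was at 21.8 FPKM, below 37.4 to 39.2 in the other HI libraries.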

How the results depend on the processing

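Fut7 kept its call under all 18 alternatives, with log2 differences of 3.06 to 4.74, and Gcnt1 under all 17 in which it was tested, with 2.07 to 4.8, the highest values coming from the pseudocount of 0.1. Cd44 kept its direction under all 18, with 1.14 to 1.67, but was called under only 6 (limma, adjusted p = 0.0119 to 0.123). The Cd44 call was also lost without a filter (limma, adjusted p = 0.0761), without a variance trend (0.0683), with sex as a covariate (0.0592), with the replicate block (0.0745) and without both HI M1 and LO M2 (0.123). Spn was called under 5 of 18 (0.0237 to 0.141), 1 of them with the number in the label as a term, an alternative chosen after seeing the data. Cd24a (0.0721), Galnt1 (0.0712) and Mmp14 (0.052) lost their calls without both HI M1 and LO M2. Cd24a also lost its call with the pseudocount of 0.1 (0.0546). Galnt1 and Cd37 lost theirs without a filter (0.0545 and 0.0632) and, as given above, with the replicate block, and Cd37 also without a variance trend (0.15) and with sex as a covariate (0.0722). Chst15 ranged from -0.57 to 0.02 when single libraries were left out, changing sign without LO M1; the cause was not tested. The count of called genes among the 9 stayed at 2 to 4, and over all genes it was 642 to 1032. Same-label libraries deviated together with correlations of 0.0522 (F1), 0.0149 (F2), 0.0699 (M1) and 0.113 (M2), all positive but only 1 above 0.1. The LO libraries F1, M1 and M2 correlated best with the HI library of their own label, and LO F2 with HI M2. The labels do not say whether a label marks 1 animal, so the libraries were not treated as pairs in the main fit, and a shared animal was not tested. With the replicate block, 771 genes and 2 of the 9 were called. Neither scaling alternative moved the median of all genes by more than 0.1 on the log2 scale. At these depths, levels near 1 FPKM rest on few reads, and differences smaller than the intervals given could not be detected.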

Other observations

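Several of these genes differed between the libraries numbered 1 and those numbered 2 within a population, a split noticed in the data and not itself tested. How often genes at large split this way was not counted. St3gal6 was at 43.8 and 50.4 FPKM in HI F1 and HI M1, against 11.5 and 5.1 FPKM in HI F2 and HI M2. In LO, St3gal6 showed no such split, at 16.5 and 6.97 FPKM in F1 and M1, against 20.3 and 1.58 FPKM in F2 and M2. Spn was at 62.7 and 54.2 FPKM in LO F1 and LO M1, against 38.2 and 32.7 FPKM in LO F2 and LO M2. In HI, Spn was at 24.7 and 29.1 FPKM in F1 and M1, against 24.4 and 20.5 FPKM in F2 and M2. Cd44 went the other way from Spn in LO, at 121 and 73.8 FPKM in F1 and M1, against 182 and 217 FPKM in F2 and M2. In HI its order was reversed, at 64.6 and 62.7 FPKM in F1 and M1, against 32.1 and 58.0 FPKM in F2 and M2. In HI, Fut7 was at 0.763 and 0 FPKM in F1 and M1, against 6.83 and 4.66 FPKM in F2 and M2. In LO, Fut7 was at 28.8 and 24.4 FPKM in F1 and M1, against 68.2 and 29.7 FPKM in F2 and M2. The labels do not say what the numbers stand for. Of the hemoglobin transcripts, Hbb-bs was at 96.0 and 91.6 FPKM in HI F1 and HI M1, against 16.2 and 29.3 FPKM in HI F2 and HI M2, and Hba-a1, Hba-a2 and Hbb-bt were also higher in HI F1 and HI M1 than in HI F2 and HI M2. In LO, Hbb-bs was at 180 and 61.7 FPKM in F1 and M1, against 0 and 33.2 FPKM in F2 and M2. Hbb-bt was also higher in LO F1 and LO M1 than in LO F2 and LO M2. Hba-a1 and Hba-a2 did not split this way in LO. There Hba-a1 was at 130 and 27.5 FPKM in F1 and M1, against 11.2 and 29.6 FPKM in F2 and M2. The part of red cell RNA in these values was not tested.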
